A study of Mus musculus with 6 samples.

Results

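Fibroblast growth factors (FGFs) and their receptors were examined in mesenchymal cells of the fetal mouse prostate treated with estradiol (E2). The genes are 6 ligands (Fgf1, Fgf2, Fgf7, Fgf9, Fgf10 and Fgf18) and 4 receptors (Fgfr1, Fgfr2, Fgfr3 and the receptor-like Fgfrl1). They were chosen by name, with earlier results of these data known. All 14 probe sets that the array annotation gives to these 10 genes were taken, of 22626 probe sets on the array and 12393 gene symbols. The cells came from the urogenital sinus of CD-1 male fetuses at gestation day 17, with the epithelium discarded, and were used at first passage. Every culture, control or treated, had 690 pM of the androgen dihydrotestosterone (DHT) in medium with charcoal-stripped serum. After 3 days without estrogen, 3 samples received 100 nM E2 and 3 control samples received 0.05% ethanol, the vehicle, for 4 days, and each RNA was hybridized to 1 Affymetrix mouse expression array. The samples are cultures of the mesenchymal fraction, grown after the epithelial fraction was discarded. The sources do not say whether the 3 of a group came from separate cell preparations, so the p-values measure a spread that may be technical.

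FGFs are secreted proteins that bind receptor tyrosine kinases together with heparan sulfate on the cell surface, and the receptors then signal through the adaptor Frs2, Ras and the MAP kinases. In the urogenital sinus, Fgf10 and Fgf7 are made by mesenchyme and act on an epithelial splice form of Fgfr2, and prostatic buds need Fgf10 to grow. Fgfr1 is the receptor known mainly from mesenchyme, Fgfr3 is known from cartilage and several epithelia, and Fgfrl1 binds FGFs but has no kinase domain.

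None of the FGF or receptor genes differed between E2 and control past the threshold, an adjusted p under 0.05 from limma, which 0.745% of all probe sets tested passed. The Fgf7 signal averaged 181.6 ± 23.3 units without E2 and 146.4 ± 22.4 units with it (SD, 3 arrays per group), and that of Fgfrl1 25.0 ± 1.97 and 36.0 ± 8.70 units. One of the 2 Fgfr2 probe sets averaged 29.5 ± 2.34 units in control and 21.0 ± 4.12 units in E2, with no overlap of the groups, as in 14.2% of all probe sets tested. The signals of Fgf2, Fgf9, Fgf10 and 1 of the 2 Fgf1 probe sets lay near 10 units, the level under which the study discarded genes, and Fgf18, Fgfr3 and the other Fgf1 probe set averaged below it in both groups. A unit here is the deposited fluorescence signal after each array was scaled to its median, and since probe sets differ in how strongly they bind, the signal of one gene cannot be set against that of another.

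Upstream sequence is shown for Fgf7 and Fgf10, the mesenchymal ligands of the prostate, and for Fgfr2, the receptor that both bind, because an estrogen was added to androgen-treated cells. The sequences are the 250 bases before the RefSeq gene start, on the GRCm38.p6 build, 5′ to 3′ on the gene's strand. Capitals mark the letters AGGTCA, the half-site of an estrogen response element.
Fgf7, chr2:126034408-126034657, strand +: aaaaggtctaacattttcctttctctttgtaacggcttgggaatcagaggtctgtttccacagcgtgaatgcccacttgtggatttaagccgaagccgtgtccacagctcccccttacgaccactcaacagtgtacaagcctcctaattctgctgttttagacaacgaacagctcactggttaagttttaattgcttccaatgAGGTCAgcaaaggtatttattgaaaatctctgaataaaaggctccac
Fgf10, chr13:118714449-118714698, strand +: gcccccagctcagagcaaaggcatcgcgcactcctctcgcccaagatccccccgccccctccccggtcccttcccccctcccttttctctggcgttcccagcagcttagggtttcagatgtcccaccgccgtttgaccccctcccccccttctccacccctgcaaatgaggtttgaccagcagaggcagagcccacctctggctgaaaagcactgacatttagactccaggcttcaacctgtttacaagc
Fgfr2, chr7:130266809-130267058, strand -: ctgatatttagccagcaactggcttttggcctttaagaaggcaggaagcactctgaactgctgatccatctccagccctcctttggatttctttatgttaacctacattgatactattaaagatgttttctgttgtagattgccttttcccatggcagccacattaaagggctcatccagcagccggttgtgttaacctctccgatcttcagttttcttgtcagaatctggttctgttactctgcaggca
RefSeq windows were at hand for 8 of the 10 genes, 9 windows in all, and were searched on both strands for the response element (GGTCA and TGACC with 3 bases between them), its half-site AGGTCA and the androgen half-site AGAACA. The full element was in none of the 9 and is in 0.0639% of all 32851 windows. AGGTCA was found once, in Fgf7, starting 47 bases before the gene start, and is in 14.02% of all windows. AGAACA was in none of the 9 and is in 16.1% of all windows. The match in Fgf7 is a description of letters and not a binding site, and a window without a match says only that these letters are not in it.

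Fgf7, also called keratinocyte growth factor, is a paracrine ligand for epithelium. Its signal was 155, 191 and 199 units on control arrays 1, 2 and 3, and 121, 164 and 154 units on E2 arrays 1, 2 and 3. The lowest value was that of E2 replicate 1, but E2 replicate 2 lay above control replicate 1, so the groups overlapped. The log2 difference, E2 minus control, was -0.31 ± 0.16 (SE, limma adjusted p = 0.652), with a 95% interval of -0.65 to 0.02. As a fold, E2 over control was 0.804, with an interval of 0.639 to 1.01. Without E2 replicate 2 the difference was -0.40 (limma adjusted p = 0.398), without control replicate 1 it was -0.42 (0.628), and without E2 replicate 1 it was -0.18 (0.832).

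Fgf10 signals the outgrowth of prostatic buds, and its probe set is one of those near 10 units. It read 11.2, 8.68 and 14.9 units in control and 6.01, 13.5 and 7.57 units in E2, so 3 of the 6 arrays were at 10 units or above. The groups overlapped, with the second highest value of all in E2 replicate 2. The log2 difference was -0.41 ± 0.50 (SE, limma adjusted p = 0.895), and its interval of -1.49 to 0.66 spans folds from 0.356 to 1.58.

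Fgf1 and Fgf2 lack a classical secretion signal and are ligands of broad receptor range. The first of the 2 Fgf1 probe sets read 13.5, 10.7 and 11.0 units in control and 11.1, 5.68 and 6.93 units in E2, and the second read 1.93 to 7.52 units on the 6 arrays and was not tested. For the first, 2 E2 arrays lay below all control arrays and E2 replicate 1 among them (log2 difference -0.63 ± 0.50 SE, 95% interval -1.69 to 0.44, limma adjusted p = 0.813). Fgf2 read 11.1, 11.7 and 8.73 units in control and 11.5, 11.9 and 8.73 units in E2. The Fgf2 groups covered nearly the same range, and the log2 difference was 0.03 ± 0.44 (SE), with a 95% interval of -0.91 to 0.96 (limma adjusted p = 0.991).

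Fgf9 is a ligand for mesenchymal receptor forms, and Fgf18 is best known from bone and cartilage. The Fgf9 signal was 17.9, 17.7 and 10.4 units in control and 16.2, 9.82 and 10.4 units in E2. High and low arrays occurred in both groups, and the log2 difference was -0.33 ± 0.39 (SE), with a 95% interval of -1.17 to 0.51 (limma adjusted p = 0.893). Fgf18 read 1.80, 7.46 and 10.4 units in control and 4.70, 1.75 and 5.12 units in E2, with 1 of 6 arrays at 10 units or above, and was not tested.

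**Figure D1:**
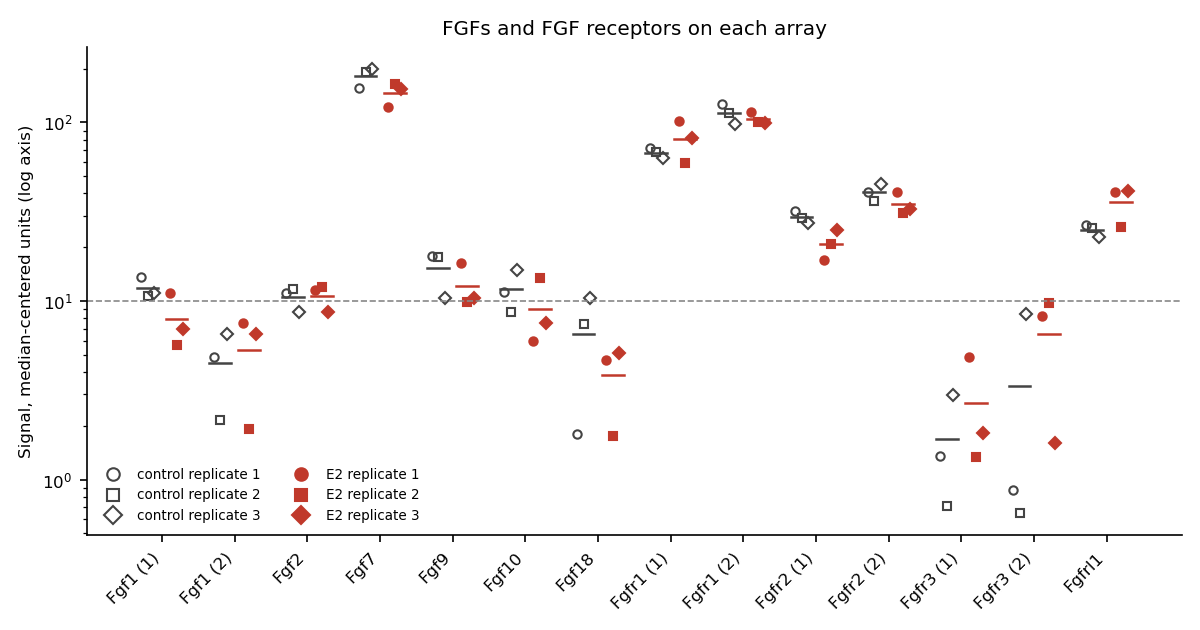
Signal in median-centered units, on a log axis, of the 14 probe sets of FGFs and FGF receptors in control (open gray) and E2 (filled red), 1 point per array, with a bar at each group's mean and a dashed line at 10 units; a number in brackets tells 2 probe sets of a gene apart. Fgf7 lies between 121 and 199 units on all arrays, the first Fgf1 probe set, Fgf2, Fgf9 and Fgf10 lie around the line, and all values of the second Fgf1 probe set and of both Fgfr3 probe sets lie below it.

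Fgfr1 was read by 2 probe sets, on which the E2 mean lay on different sides of the control mean. The brighter (1425911_a_at) read 128, 113 and 97.6 units in control and 114, 100.3 and 99.2 units in E2. All E2 arrays fell inside the control range, and the interval of the log2 difference, -0.43 to 0.23, corresponds to folds of 0.744 to 1.17 (log2 difference -0.10 ± 0.15 SE, limma adjusted p = 0.921). The other (1424050_s_at) read 71.8, 67.9 and 63.6 units in control and 102, 59.1 and 81.6 units in E2. Here E2 replicates 1 and 3 lay above all controls and E2 replicate 2 below them (log2 difference 0.22 ± 0.19 SE, 95% interval -0.20 to 0.64, limma adjusted p = 0.837). Its difference was 0.43 without E2 replicate 2 (limma adjusted p = 0.398) and 0.037 without E2 replicate 1 (0.979). By the array maker's naming, the ending _s_at marks a probe set that can read transcripts of more than 1 gene and _a_at one that reads several transcripts of 1 gene.

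Fgfr2, the receptor for Fgf7 and Fgf10, also has 2 probe sets, both with a lower mean in E2. The dimmer (1420847_a_at) read 32.1, 29.0 and 27.5 units in control and 16.9, 20.9 and 25.1 units in E2. All 3 E2 arrays were below all 3 control arrays, with a log2 difference of -0.51 ± 0.24 (SE, 95% interval -1.03 to 0.01, limma adjusted p = 0.634). It was the only one of the 10 probe sets tested with groups apart, and 14.2% of all probe sets tested had groups apart. The brighter (1433489_s_at) read 40.6, 36.2 and 45.4 units in control and 40.6, 31.0 and 32.6 units in E2. Of these, E2 replicates 2 and 3 lay below all controls and E2 replicate 1 among them, with a log2 difference of -0.24 ± 0.20 (SE, 95% interval -0.67 to 0.19, limma adjusted p = 0.828). Which exons each probe set reads is not given in the sources used here, so the epithelial and mesenchymal splice forms of Fgfr2 cannot be told apart.

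Fgfrl1, the receptor-like protein without a kinase, had its higher mean in E2. It read 26.5, 25.8 and 22.8 units in control and 40.9, 25.9 and 41.1 units in E2. In E2 replicates 1 and 3 it was above all controls, while E2 replicate 2 lay within the control range. The log2 difference was 0.49 ± 0.24 (SE, limma adjusted p = 0.639), and the 95% interval of the fold, E2 over control, was 0.989 to 2.01. Without E2 replicate 2 the difference was 0.71 and did not pass either (limma adjusted p = 0.241). The signal of a probe set for 18S ribosomal RNA, as deposited, was 281 and 288 units on the arrays of control replicate 3 and E2 replicate 2, the lowest for Fgfrl1 in each group, against 22.8 to 44.7 units on the other arrays. Without both of these arrays the Fgfrl1 difference was 0.65 (limma adjusted p = 0.354), and the part of the 18S signal in it was not tested further.

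Fgfr3 was near the lower end of the signal. Its first probe set read 0.712 to 2.98 units in control and 1.34 to 4.88 units in E2, and its second 0.649 to 8.50 and 1.60 to 9.75 units. No array reached 10 units on either probe set, so Fgfr3 was not tested and no fold is given.

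Of the 10 probe sets tested, for 5 ligands and 3 receptors, limma called 0 at an adjusted p under 0.05, where it called 106 of the 14223 probe sets tested. At an unadjusted p under 0.05 the count was also 0, against 7.99% of all probe sets, and the lowest unadjusted p of a member from limma was 0.0554, for the dimmer Fgfr2 probe set. With the study's own thresholds, a 1.5-fold change at P of 0.05 or less before adjustment, it was 0 again, against 3.94%. At such rates fewer than 1 call falls among 10 probe sets, so the counts of 0 are close to the background. The difference was negative for 7 and positive for 3 of the 10, with a median of -0.28, while over all probe sets tested 56.6% were negative and the median was -0.04. The probe sets passed a minimum of 10 units in at least 1 group, and the 4 left out were the second of Fgf1, that of Fgf18 and both of Fgfr3. The first Fgf1 probe set and that of Fgf10 averaged 7.89 and 9.02 units in E2 and passed only through control, which favors a negative difference.

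**Figure D2:**
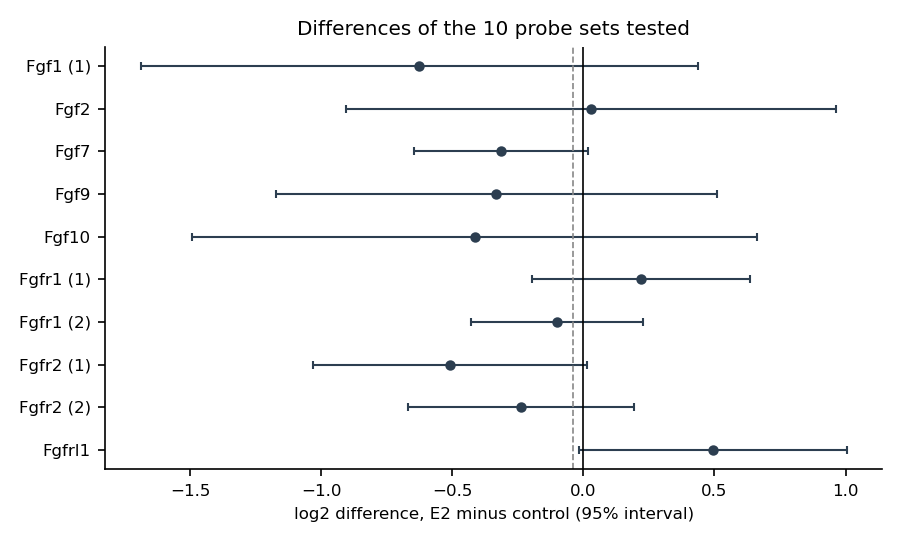
Log2 difference, E2 minus control, of the 10 probe sets tested (points) with the 95% interval from limma (bars), a solid line at 0 and a dashed line at the median of all probe sets tested, -0.04. Every interval includes 0, and those of Fgf7, the first Fgfr2 probe set and Fgfrl1 end close to it, at 0.02, 0.01 and -0.02.

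In the main fit, whose variance trend draws each error toward the level usual at its signal, the precision followed the signal. Without the trend, the standard errors of Fgf1, Fgf9 and Fgf10 were 0.27, 0.29 and 0.34. That of Fgf2 was then 0.19, below the 0.22 of Fgfrl1. The values that follow are from the main fit. The 6 probe sets that averaged 20 units or more over the 6 arrays (Fgf7, Fgfrl1 and both of Fgfr1 and Fgfr2) had standard errors of 0.15 to 0.24, and the other 4 had standard errors of 0.39 to 0.50. Among those 6, the coefficient of variation over the 3 arrays was 6.08% to 13.3% in control and 8.13% to 26.4% in E2. The wide intervals of Fgf1, Fgf2, Fgf9 and Fgf10 do not show that these genes were equal in both groups.

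**Figure D3:**
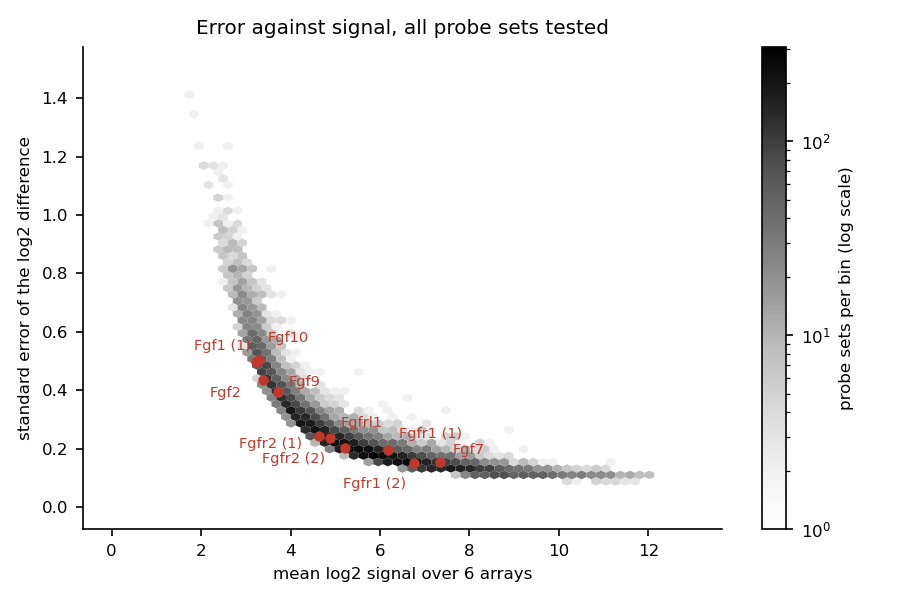
Standard error of the log2 difference against the mean log2 signal over the 6 arrays, for all 14223 probe sets tested (gray bins, shaded by their number on a log scale) and the 10 of FGFs and receptors (red points). The error falls as the signal rises, from 0.50 for Fgf10 to 0.15 for the second Fgfr1 probe set, in a fit whose variance trend itself ties the error to the signal.

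The genes whose values over the 6 arrays ran closest to Fgf7 were Marveld1, 4833420G17Rik and Ddit3, at root mean square distances of 0.06, 0.09 and 0.09 on the log2 scale after each gene's mean was removed. They were sought among 2548 genes that averaged 100 units or more in either group. Closest to Fgfrl1, of 2549 such genes, were Nbl1, C1qtnf12 and Tgfbr2, at 0.08, 0.09 and 0.09. Like Fgfrl1, Tgfbr2, a receptor for TGF-β, had its highest values in E2 replicates 1 and 3, 518 and 538 units, while E2 replicate 2 read 388 units and the controls 296 to 371 units. These patterns share the array scaling, and none of the 6 genes was called by limma.

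Beyond these 10 genes, the FGF pathway was described by 89 genes in 5 lists ordered by role, of which 73 were on the array and 51 were tested, each by its brightest probe set. Of the 51, 1 was called lower and 0 higher, the median log2 difference was -0.07, and 8 had an unadjusted p under 0.05 from limma, against 0.745% called and 7.99% under 0.05 unadjusted over all probe sets tested. The lists were drawn up with earlier results of these data known. The gene called was Bmp4, which the study selected on these same arrays, so the count of 1 is not independent evidence on the pathway. Of the 16 other FGF ligands, all on the array, 13 averaged below 10 units in both groups as deposited. On single arrays, after each was scaled to its median, these 13 read 0.500 to 14.3 units. The 3 tested were Fgf3, Fgf13 and Fgf21, with log2 differences of -0.83, -0.14 and 1.48, standard errors of 0.67, 0.33 and 0.83, and none called. Fgf3 read 2.05 units on E2 replicate 1, against 10.6 and 16.15 units on the other E2 arrays. Fgf21 averaged 7.90 units in control, on arrays at 2.31, 1.97 and 19.4 units, and passed the minimum of 10 units only through E2. Of 6 other receptors and coreceptors on the array, Fgfr4, the klothos Kl and Klb and the carrier Fgfbp1 were not tested. The adhesion proteins Ncam1 and Cdh2, which can bind FGF receptors, had differences of 0.19 and -0.27 and were not called, and the other 3 Ncam1 probe sets tested gave -0.10 to -0.06.

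Among 17 genes of heparan sulfate proteoglycans and the enzymes that build or trim heparan sulfate, all tested, limma called 0, while 4 had an unadjusted p under 0.05, each with its lower mean in E2. Over all probe sets tested, 7.99% had an unadjusted p under 0.05 from limma, in either direction. The median difference of the 17 was -0.03. The proteoglycan Sdc2 read 152, 144 and 168 units in control and 103, 94.6 and 134 units in E2 (log2 difference -0.50 ± 0.16 SE, limma adjusted p = 0.297). Hs6st2, a sulfotransferase, averaged 82.0 ± 11.6 and 58.3 ± 0.0588 units (SD, 3 arrays each), and its log2 difference was -0.48 (limma adjusted p = 0.374). Sulf2, which removes sulfate groups, and the glypican Gpc4 had differences of -0.31 and -0.30 (adjusted p = 0.563 and 0.582). In all 4 the E2 arrays lay below the control arrays, as for groups apart in either direction in 14.2% of all probe sets tested. Both other probe sets of Hs6st2 were also lower on every E2 array, 1 of them below 10 units and not tested, while both other probe sets of Sdc2 had negative differences with overlapping groups.

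Of 16 signal transducers tested, limma called 0, and the median difference was 0.03. The unadjusted p from limma was under 0.05 for 2, against 7.99% of all probe sets tested in either direction. Both of the 2 had the higher mean in E2. The kinase Map2k1 averaged 243 ± 5.91 units without and 298 ± 16.2 units with E2 (SD over 3 arrays, log2 difference 0.29 ± 0.12 SE, limma adjusted p = 0.527). Cbl, a ubiquitin ligase that removes active receptors, averaged 6.47 and 13.9 units, below 10 units in control (log2 difference 1.11 ± 0.48 SE, limma adjusted p = 0.587). Cbl passed the minimum of 10 units only through E2, which favors a positive difference. The adaptor Gab1 had a difference of -0.26 and did not pass, and its other probe sets tested gave -0.48 and -0.19. For the adaptor Crk the sign depended on the probe set, with 0.31 for the brightest and -0.25, -0.21 and 0.56 for the others tested, none called.

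Among 13 targets and feedback inhibitors tested, Bmp4 fell, 0 rose and 12 did not pass, with a median difference of -0.13. Bmp4, a bone morphogenetic protein of the same mesenchyme that is known to restrain prostatic budding, read 196, 175 and 227 units in control and 138, 94.2 and 87.9 units in E2 (log2 difference -0.92 ± 0.18 SE, limma adjusted p = 0.0243). The study selected Bmp4 on these same arrays, so its fall here is not independent evidence. Bmp4 was also measured in independent samples by quantitative PCR, which the paper describes as compatible with its array profiles. Those PCR values were not used here, and the limma call rests on these arrays alone. The call was lost, at log2 differences of -0.80 to -0.93, without control replicates 1 or 3 (adjusted p = 0.0900 and 0.191 from limma), without E2 replicates 2 or 3 (0.0583 and 0.111), or with the values as deposited (1.0). Spry1, which dampens signaling below FGF receptors, averaged 105 ± 10.5 and 85.6 ± 11.1 units (SD over 3 arrays, difference -0.31, limma adjusted p = 0.678). Myc and Fos, genes that growth factor signaling induces, had differences of 0.54 and 0.34 and adjusted p of 0.525 and 0.727, and in both E2 replicate 2 was lower than the other E2 arrays. Spry4 and the transcription factor Etv4 were below 10 units in both groups and not tested.

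**Figure D4:**
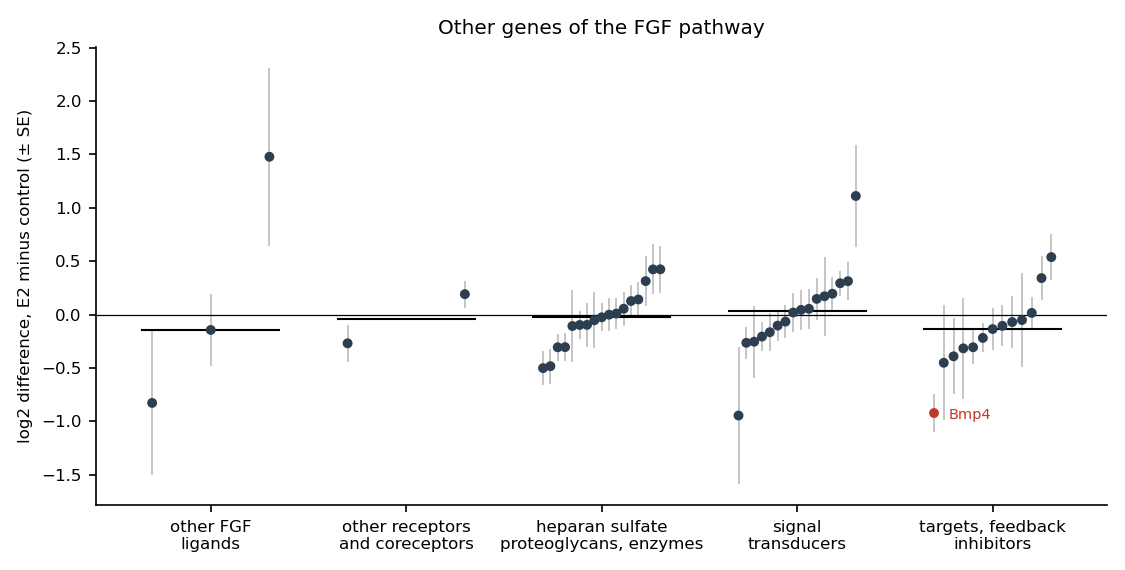
Log2 difference, E2 minus control, with its standard error, of the 51 tested genes of the 5 pathway lists, 1 point per gene by its brightest probe set, sorted within each list, with a line at the list's median. Bmp4, in red at -0.92, is the 1 gene called, and the list medians lie between -0.14 and 0.03.

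The cultures carried mesenchymal markers on every array. Of 7 mesenchymal markers on the array, among them vimentin (Vim) and the collagens Col1a1 and Col3a1, limma called 0 and none had an unadjusted p under 0.05, and their summed signal was 12105 to 13933 units in control and 11787 to 12644 units in E2. Of 10 epithelial markers, Epcam and Cdh1 averaged below 10 units in both groups, at 0.564 to 12.7 and 0.725 to 12.0 units on single arrays. The epithelial sum was 57.7 to 92.5 units in control and 134.7 to 145 units in E2, with 1 gene called higher, the keratin Krt18 (39.1 and 72.0 units, limma adjusted p = 0.0416). All 4 epithelial markers tested, the keratins Krt8, Krt14, Krt18 and Krt19, had higher values on every E2 array than on any control array. Their median log2 difference was 1.10, and 2 of the 4 had an unadjusted p under 0.05 from limma, against 7.99% of all probe sets tested. Groups were apart in either direction in 14.2% of all probe sets tested. Krt8, Krt14 and Krt19 averaged 6.36, 5.56 and 8.66 units in control and passed the minimum of 10 units only through E2, which favors a positive difference. The 6 macrophage and leukocyte markers, with sums of 168 to 291 and 156 to 162 units, all had negative differences, and limma called 0 of them, with 2 at an unadjusted p under 0.05. Of all probe sets tested, 56.6% had a negative difference and 7.99% an unadjusted p under 0.05 from limma. The 5 endothelial markers summed to 35.9 to 56.9 units in control and 48.1 to 65.1 units in E2, with Pecam1 at 0.546 to 1.55 units, and limma called 0 of these and 0 of 5 smooth muscle markers, with none at an unadjusted p under 0.05. In such bulk samples, fewer cells of a type and less RNA per cell cannot be told apart, and the part of these markers in the FGF values was not tested.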

How the data were processed

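Affymetrix mouse expression arrays of 3 control and 3 E2 samples were analyzed, grouped and numbered by their titles. The authors converted the scanned images with Affymetrix software to the deposited intensity values, linear and 1 per probe set; no source used here gives the signal algorithm or the scaling. Array medians ran from 13.7 to 21.8 units as deposited, so each array was centered on its median. After 64 control probe sets were left out, those with a mean of at least 10 units as deposited in control or E2 were kept, and log2 values were fitted with limma 3.58.1 in R 4.3.3 (lmFit, eBayes with a variance trend), two-sided, with Benjamini-Hochberg adjustment over all 14223. The fit was checked on simulated data. Symbols came from the platform annotation, updated by gene identifier to RefSeq: 20393 probe sets had 1 symbol, 691 several and 1606 none. A gene was given by its brightest probe set (mean log2 over all arrays).

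The genes, pathway lists and markers were chosen with earlier results of these data known. All 10 FGF and receptor genes are named, and in each list the genes past the threshold and up to 4 of the smallest p; Ncam1, Cdh2 and the genes not tested are named for their role. Cell type markers are named as examples. Alternatives were other scalings, filters, a pseudocount, variance models, a replicate block, array weights, single arrays left out, and, chosen after the data were seen, both arrays of high 18S signal left out. The number of arrays limits the precision.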

Additional observations from a re-analysis of the deposited data

How the results depend on the processing

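The 8 FGF and receptor genes tested, each by its brightest probe set, were refitted in 16 alternative ways, giving 122 values, and limma called 0 of them. The lowest adjusted p was 0.241, for Fgfrl1 without E2 replicate 2. The direction was that given above in 116 of the 122. The 6 exceptions were Fgf2, at -0.061 with array weights, -0.18 with the high-18S arrays of both groups left out, and -0.099, -0.028 and -0.056 without control replicate 3, E2 replicate 1 and E2 replicate 2, and Fgfr1, at 0.060 as the mean of its probe sets. With 1 array left out at a time, the log2 difference ran from -0.10 to 0.17 for Fgf2, -0.42 to -0.18 for Fgf7, -0.90 to -0.42 for Fgf1, -0.59 to -0.20 for Fgf9, -0.75 to -0.16 for Fgf10, -0.20 to -0.01 for Fgfr1, -0.35 to -0.16 for Fgfr2 and 0.38 to 0.71 for Fgfrl1. At an unadjusted p under 0.05, the probe sets of these genes numbered 0 to 3 under every alternative. With a filter at 100 units, 2 of them were left to test. The 1 list gene called, Bmp4, became 0 called with the values as deposited, without a variance trend and with the high-18S arrays left out, and 0 to 1 with 1 array left out; the cause was not tested. The deviations of arrays of the same number from their group means had correlations of -0.06 to 0.01. Those of arrays of different numbers had correlations of -0.01 to 0.07. With 3 arrays per group, such values cannot tell whether samples of the same number shared a cell preparation, and the main fit had no pairing. With the replicate number as a block, the Fgf7 difference stayed at -0.31 (adjusted p = 0.699 from limma), 0 FGF or receptor genes and 1 list gene were called, and 88 of all probe sets were called, against 106 without it.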
